A study of Mus musculus with 8 samples.

Results

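The genes described here are 10 members of the transforming growth factor beta (TGF-beta) pathway, chosen by name from the 49315 genes of the deposited tables: the ligand genes Tgfb1, Tgfb2 and Tgfb3, the receptor genes Tgfbr1 and Tgfbr2, the signal transducer gene Smad3, the inhibitor gene Smad7, and the repressor genes Ski, Skil and Tgif1. RNA of back skin epidermis from mice aged 22 months was sequenced. The Tgfa knockouts (KO) gave 5 libraries and the wild type controls (WT) 3, and no further allele, agent or treatment is labelled in either group. Tgfa codes for TGF-alpha, which activates the EGF receptor and, despite its name, does not bind TGF-beta receptors. The study asks what Tgfa does for hair follicles and hair loss in old mice. The sources used here do not state the structure of the Tgfa allele or whether animals were pooled.

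TGF-beta ligands are secreted in a latent form and, once activated, bind the type II receptor Tgfbr2, which phosphorylates the type I receptor Tgfbr1. Tgfbr1 then phosphorylates Smad2 and Smad3, which enter the nucleus with Smad4 and switch target genes on or off. Smad7 blocks the receptors, and Ski, Skil (also called SnoN) and Tgif1 bind Smads and recruit co-repressors. In skin, TGF-beta signalling is known to restrain keratinocyte proliferation and to take part in the hair cycle.

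The libraries held 5313552 to 18292303 counts, and all 10 genes had enough counts to be tested. Keratinocyte markers were abundant in every library, with sums over 8 genes of 14441 to 32817 CPM (counts scaled to library size with TMM factors) in KO and 14612 to 29019 CPM in WT. The lowest sums were those of KO replicate 2 and WT replicate 3. Those 2 libraries also carried the most counts on olfactory and vomeronasal receptor genes, at 4.58 and 1.84 counts per kb of exon, against 0.124 to 0.933 in the others. KO replicate 2 was also the shallowest library. In its Tgfa RNA level the library labelled KO replicate 1 goes against its label, at 131.7 CPM, above the WT range of 85.1 to 111.7 CPM. KO replicates 2 to 5 lay between 34.4 and 70.1 CPM, so Tgfa RNA was counted in every KO library. Over all 8 libraries Tgfa was at -0.61 on the log2 scale, KO minus WT (adjusted p = 0.899 in edgeR's quasi-likelihood test). Names of libraries carry the ending bl in KO replicates 3 to 5 and br in KO replicates 1 and 2 and in every WT library. What these endings stand for the labels do not say. The share of Malat1, a noncoding RNA kept in the nucleus, was 4.88% in the library labelled KO replicate 1 and 6.61% in WT replicate 3, against 1.34% to 1.84% in the other 6 libraries.

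Tgif1 encodes a homeodomain protein that binds Smad2 and Smad3 and holds their target genes silent. It was lower in every KO library than in every WT library, the clearest separation among the 10 genes. Tgif1 had 50.4, 38.0, 45.1, 42.6 and 44.2 CPM in KO replicates 1 to 5, against 106.1, 71.2 and 76.6 CPM in WT replicates 1 to 3. The highest KO library lay below the lowest WT library, and the library labelled KO replicate 1 was not set apart from the other KO libraries. The KO mean was 44.1 ± 4.47 CPM (SD, n = 5) and the WT mean 84.6 ± 18.8 CPM (SD, n = 3), so the KO mean was 52.1% of the WT mean. The log2 fold change was -0.94 (95% interval -1.40 to -0.48, SE 0.20), with an unadjusted p of 0.000998, rank 43 among 19239 genes, and an adjusted p of 0.407 in edgeR's quasi-likelihood test with Benjamini-Hochberg adjustment. Tgif1 therefore did not pass the threshold of 0.05. Earlier results of these data had named it among the genes of lowest p whose groups do not overlap, so its separation is a description here.

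The Tgif1 difference was negative in each part of the libraries, and its size moved most when a WT library was left out. It was -0.71 without WT replicate 1 (SE 0.28) and -1.26 without WT replicate 2 (SE 0.22). Among libraries ending in br it was -0.99 (SE 0.47, edgeR adjusted p = 0.993), and with the 3 KO libraries ending in bl against WT it was -0.998 (SE 0.19, edgeR adjusted p = 0.069), where ending and genotype cannot be told apart. Without KO replicate 2 and WT replicate 3 it was -0.98 (edgeR adjusted p = 0.183). Tgif1 passed in DESeq2 (-0.97, adjusted p = 0.0018), which called 0.810% of the 16911 genes given an adjusted p (0.574% higher and 0.237% lower), and in limma voom with library weights (-0.92, adjusted p = 0.0112), which called 6.46% of 19239 genes (3.39% higher and 3.07% lower). That fit weights a library by how closely it follows its group, with 0.284 and 0.366 for the library labelled KO replicate 1 and KO replicate 2 and 0.339 for WT replicate 3.

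Tgif1 (ENSMUSG00000047407) lies on the minus strand of chromosome 17, at 70844205 to 70853546 on GRCm38, and RefSeq gives it 5 start sites, whose transcripts the gene-level count adds together. A pair of its promoter sequences is shown because this gene separates the groups: that of the outermost start and that of the start with the most GC boxes, each from 250 bases before to 50 bases after the start. The promoter of Tgfb1, the other gene whose groups do not overlap with TMM scaling, is shown for comparison. All are from RefSeq on GRCm38.p6, written 5′ to 3′ on the strand of the gene. Capitals mark the SMAD box (GTCTG), the motif bound by TGIF proteins (TGACAG) and the GC box (GGGCGG), searched on both strands, with no base shared between different motifs.
Tgif1, outermost start, chr17:70853483-70853782: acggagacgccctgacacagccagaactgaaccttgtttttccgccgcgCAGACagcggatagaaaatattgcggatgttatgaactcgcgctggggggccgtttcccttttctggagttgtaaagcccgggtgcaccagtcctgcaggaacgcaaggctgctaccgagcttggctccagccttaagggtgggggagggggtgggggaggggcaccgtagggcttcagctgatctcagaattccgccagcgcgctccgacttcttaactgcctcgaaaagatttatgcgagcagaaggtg
Tgif1, start with GC boxes, chr17:70851161-70851460: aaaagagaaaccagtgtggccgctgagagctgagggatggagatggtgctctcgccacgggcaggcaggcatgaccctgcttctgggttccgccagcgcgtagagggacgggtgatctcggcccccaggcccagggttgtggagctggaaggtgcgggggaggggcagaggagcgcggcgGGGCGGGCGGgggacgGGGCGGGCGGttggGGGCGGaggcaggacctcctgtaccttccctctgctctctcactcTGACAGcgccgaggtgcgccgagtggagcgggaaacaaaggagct
Tgfb1, chr7:25686752-25687051: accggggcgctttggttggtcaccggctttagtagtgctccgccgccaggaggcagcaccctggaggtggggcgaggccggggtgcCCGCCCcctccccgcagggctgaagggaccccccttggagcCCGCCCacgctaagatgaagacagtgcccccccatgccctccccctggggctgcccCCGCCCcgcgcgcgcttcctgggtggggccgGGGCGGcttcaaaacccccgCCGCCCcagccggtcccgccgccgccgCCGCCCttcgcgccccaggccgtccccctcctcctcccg

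The outermost Tgif1 promoter held 1 SMAD box, the second held 5 GC boxes and 1 TGIF motif, and the Tgfb1 promoter held 6 GC boxes. Of 32851 RefSeq promoters of this length, 49.6% held a SMAD box, 19.2% the TGIF motif and 35.7% a GC box, so each of these motifs is common. Promoters were taken for 7 of the 10 genes. None was found for Tgfb3 and Skil, and chromosome 18, which holds Smad7, was left out of the search.

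**Figure D1:**
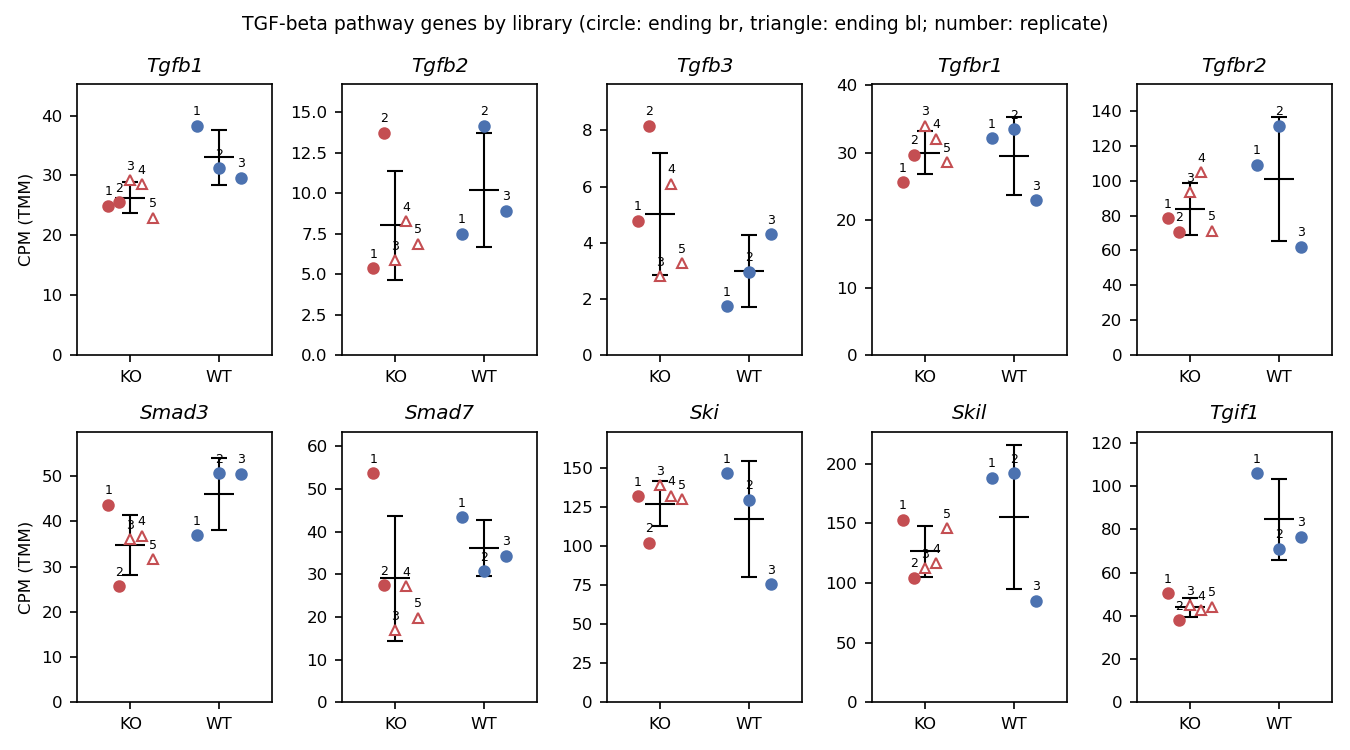
Level of each of the 10 genes in every library, in CPM with TMM library sizes on a linear axis from 0, with KO left of WT. Circles are libraries ending in br, triangles libraries ending in bl, numbers are replicates, and black bars give the mean and SD. Tgif1 and Tgfb1 are the genes whose KO and WT points do not overlap.

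Of the 10 genes, 0 passed the edgeR threshold in either direction, against 1 gene, or 0.00520%, of the 19239 tested: Gm15772, a predicted gene outside the pathway, named after its values were seen. Limma voom also called 0 of them and DESeq2 1, and at an unadjusted edgeR p under 0.05 there was 1, lower in KO, against 6.28% of all genes (4.44% higher and 1.85% lower). The groups did not overlap in 2 of the 10, both lower in KO, where 1.75% of all genes were lower and 3.40% higher without overlap. With library totals alone in place of TMM, the groups overlapped in Tgfb1 but not in Tgif1. The median log2 fold change of the 10 was -0.31, with 3 positive and 7 negative, beside a median of 0.16 over all genes tested, of which 61.9% were positive. Without KO replicate 2 these medians were -0.29 for the 10 genes and 0.02 for all genes.

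**Figure D2:**
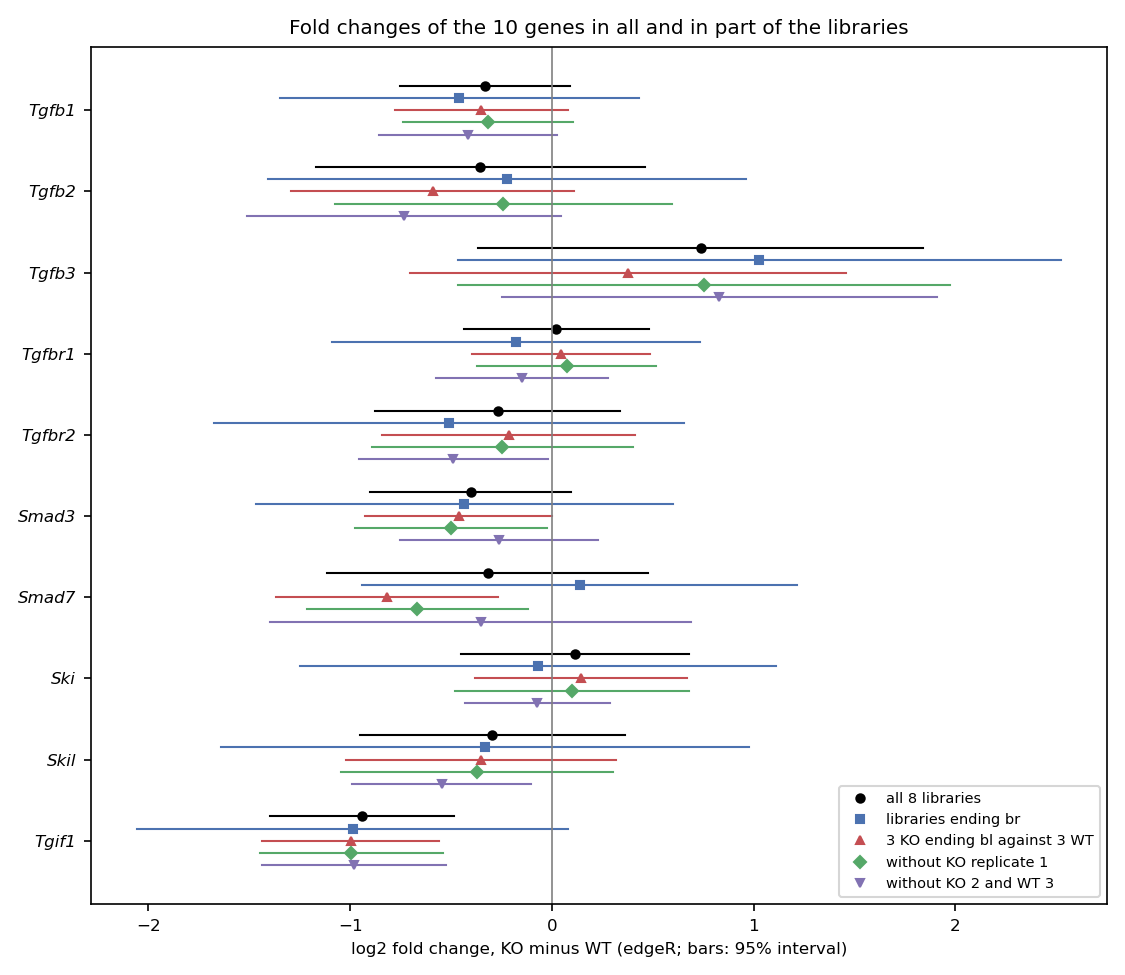
Log2 fold change, KO minus WT, of each of the 10 genes in edgeR, with 95% intervals, from all 8 libraries and from parts of them. Tgif1 stays between -0.94 and -0.998 in each fit shown, while Smad7 lies at 0.14 among libraries ending in br and at -0.82 with the KO libraries ending in bl. Fits without WT replicate 1 or without WT replicate 2, in which Tgif1 moved most, are not shown.

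Among the ligands, Tgfb1 was the most abundant and stood lower in every KO library than in every WT library, by a small margin. Tgfb1 (ENSMUSG00000002603, chromosome 7, 25687002 to 25705077) had 24.98, 25.5, 29.2, 28.6 and 23.0 CPM in the KO libraries, against 38.3, 31.2 and 29.6 CPM in the WT libraries. The highest KO library and the lowest WT library were 29.2 and 29.6 CPM, and with library totals alone in place of TMM they were 30.7 and 29.2 CPM and the groups overlapped. The log2 fold change was -0.33 (95% interval -0.75 to 0.09, SE 0.19, edgeR adjusted p = 0.849).

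Tgfb2, a ligand known in mouse skin for its action on hair follicle growth and regression, did not separate the groups. Tgfb2 (ENSMUSG00000039239, chromosome 1, 186622792 to 186705989) had 5.38, 13.7, 5.88, 8.27 and 6.89 CPM in the KO libraries, against 7.501, 14.2 and 8.91 CPM in the WT libraries. KO replicate 2 and WT replicate 2 were high and the other 6 libraries lay between 5.38 and 8.91 CPM. In KO replicate 2 the count of 79 is small, and the receptor gene counts per kb of that library, taken over the exon length of Tgfb2, come to 26.5 counts, or 33.6% of it. In edgeR its log2 fold change was -0.35 (SE 0.37, edgeR adjusted p = 0.931), and -0.65 without KO replicate 2.

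Tgfb3 was the scarcest ligand in WT and the only one of the 3 ligand genes with a positive value. Tgfb3 (ENSMUSG00000021253, chromosome 12, 86056744 to 86079041) had 4.79, 8.16, 2.81, 6.11 and 3.27 CPM in the KO libraries, from 45 to 107 counts, against 1.74, 2.98 and 4.30 CPM in the WT libraries, from 31 to 55 counts. KO replicates 1, 2 and 4 lay above all WT libraries, and KO replicates 3 and 5 lay within the WT range. In KO replicate 2 the receptor gene rate, taken over the exon length of Tgfb3, comes to 15.5 counts, or 33.0% of its 47 counts. KO minus WT it was at 0.74 on the log2 scale (95% interval -0.37 to 1.84, SE 0.50, edgeR adjusted p = 0.884), 0.47 without KO replicate 2 and 0.71 after counts at the receptor gene rate were taken off every gene. Tgfb2 and Tgfb3 share 124 and 163 exon bases with genes of the opposite strand. The sources used here do not state strandedness, so how reads on those bases were counted is not known.

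Set against each other per kb of exon, the ligands kept the same leading member in all 8 libraries. Tgfb1 made up 65.3% ± 8.93 of the summed CPM per kb of the 3 ligands in KO (SD, n = 5) and 71.2% ± 8.42 in WT (SD, n = 3). The Tgfb2 share was 16.8% ± 4.56 in KO and 19.1% ± 6.07 in WT. The Tgfb3 share was 17.9% ± 5.31 in KO and 9.78% ± 4.61 in WT, with KO libraries between 10.9% and 24.5% and WT libraries between 5.45% and 14.6%. The sum was 8.08 ± 1.27 CPM per kb in KO and 9.20 ± 0.45 CPM per kb in WT, and the groups overlapped in the sum and in each share.

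**Figure D3:**
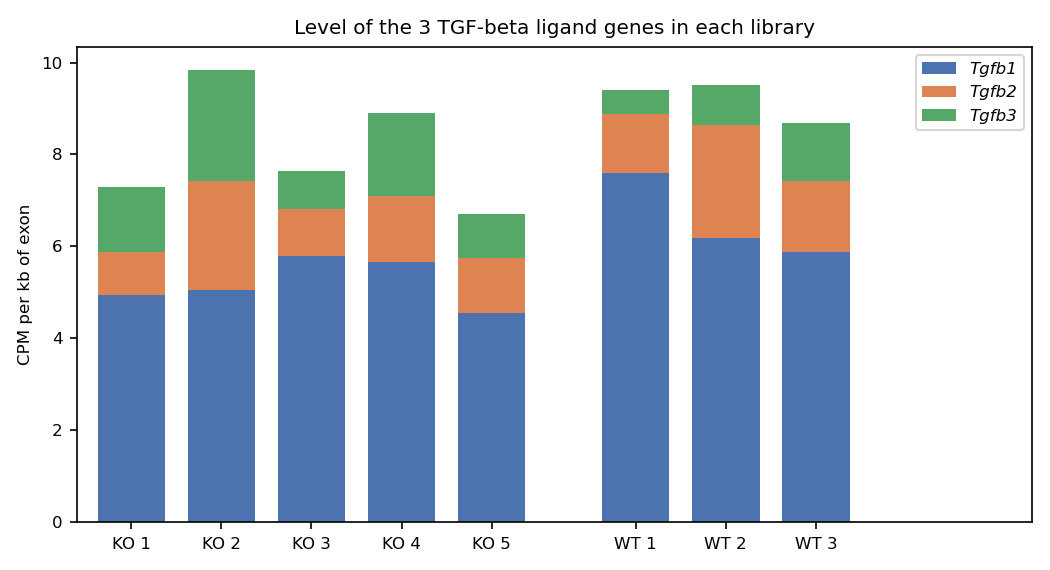
Summed level of the 3 ligand genes in each library, in CPM per kb of exon, with KO left of WT and each bar split into Tgfb1, Tgfb2 and Tgfb3. Tgfb1 is the largest part of every bar, and the Tgfb3 part is largest in KO replicate 2, where it is 24.5% of the sum. In that library the receptor gene rate over the exon length of Tgfb3 comes to 33.0% of its count.

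The receptor genes did not separate the groups. Tgfbr1 (ENSMUSG00000007613, chromosome 4, 47353222 to 47414931), the type I receptor kinase, had 25.7, 29.7, 34.0, 32.1 and 28.6 CPM in the KO libraries, against 32.1, 33.5 and 23.0 CPM in the WT libraries. Its log2 fold change was 0.02 (95% interval -0.43 to 0.48, SE 0.20, edgeR adjusted p = 0.988), and its sign changed between scalings, at -0.01 with RLE size factors. Tgfbr2 (ENSMUSG00000032440, chromosome 9, 116084293 to 116175360), the ligand-binding type II receptor, had 78.5, 70.7, 93.2, 104.8 and 71.4 CPM in the KO libraries, against 109.1, 131.4 and 62.1 CPM in the WT libraries. WT replicate 3 was the lowest of all 8 libraries for both receptors, as it was for Ski and Skil, and it had the lowest keratinocyte marker sum of the WT libraries, whose part in these levels was not tested. Tgfbr2 stood on the log2 scale at -0.27 (95% interval -0.88 to 0.34, SE 0.27, edgeR adjusted p = 0.930). Per kb of exon, the level of Tgfbr2 was 2.22 ± 0.30 times that of Tgfbr1 in KO (SD, n = 5) and 2.66 ± 0.49 times in WT (SD, n = 3), with a range of 1.90 to 2.60 in KO and 2.16 to 3.13 in WT.

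Smad3 carries the signal of the activated receptor into the nucleus. Smad3 (ENSMUSG00000032402, chromosome 9, 63646767 to 63757994) had 43.6, 25.7, 36.0, 36.9 and 31.6 CPM in the KO libraries, against 36.9, 50.7 and 50.5 CPM in the WT libraries. Only the library labelled KO replicate 1 lay clearly inside the WT range, while KO replicate 4 and WT replicate 1 were almost level. Its log2 fold change was -0.40 (95% interval -0.90 to 0.10, SE 0.22, edgeR adjusted p = 0.844).

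Smad7, the receptor inhibitor that TGF-beta itself induces as a feedback, had the highest coefficient of variation among KO libraries of the 10 genes, at 50.1%. Smad7 (ENSMUSG00000025880, chromosome 18, 75367529 to 75395935) had 53.7, 27.4, 16.9, 27.3 and 19.8 CPM in the KO libraries, against 43.4, 30.8 and 34.4 CPM in the WT libraries. The library labelled KO replicate 1 was the highest of all 8, and the other 4 KO libraries lay below every WT library. The log2 fold change was -0.32 (SE 0.36, edgeR adjusted p = 0.933), and -0.67 without the library labelled KO replicate 1 (SE 0.24, edgeR adjusted p = 0.283). It turned positive among libraries ending in br, at 0.14 (edgeR adjusted p = 0.994), and was -0.82 with the KO libraries ending in bl (edgeR adjusted p = 0.128). Within KO, Smad7 in libraries ending in bl against those ending in br was at -0.98 (SE 0.33, unadjusted p = 0.0218, edgeR adjusted p = 0.220). It was the 1 of the 10 genes with an unadjusted p under 0.05 in that comparison, in which 17.5% of 19026 genes had one (6.58% higher and 11.0% lower) and 0 genes passed in edgeR or limma voom. That count rests on single libraries: 12160 genes passed without the library labelled KO replicate 1 and 4620 without KO replicate 2.

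Ski and Skil encode related proteins that bind Smad complexes and recruit co-repressors, and Skil is itself induced by TGF-beta. Ski (ENSMUSG00000029050, chromosome 4, 155154075 to 155222592) had 132.1, 102.3, 139.1, 132.6 and 130.3 CPM in the KO libraries, against 147.0, 129.9 and 75.7 CPM in the WT libraries. It was nearly level in 4 of the 5 KO libraries, and its log2 fold change was 0.12 (95% interval -0.45 to 0.68, SE 0.25, edgeR adjusted p = 0.951), or -0.13 without WT replicate 3. Skil (ENSMUSG00000027660, chromosome 3, 31095058 to 31122577) had 152.9, 104.6, 112.6, 116.6 and 146.0 CPM in the KO libraries, against 188.3, 192.1 and 85.3 CPM in the WT libraries. All KO libraries lay between WT replicate 3 and the other WT libraries. Skil stood on the log2 scale at -0.29 (SE 0.29, edgeR adjusted p = 0.930), and -0.60 without WT replicate 3 (edgeR adjusted p = 0.790).

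Without KO replicates 1 and 2 and WT replicate 3, a choice known from earlier results of these data, 3 of the 10 genes passed in edgeR, all lower in KO: Tgif1 (-1.04, adjusted p = 0.00629), Skil (-0.63, adjusted p = 0.0213) and Smad7 (-0.83, adjusted p = 0.0478). In that fit of 3 KO against 2 WT libraries 10.6% of 17804 genes were called, 5.25% higher and 5.32% lower. Its KO libraries all end in bl and its WT libraries all end in br, so genotype and label ending cannot be told apart in it.

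Levels per kb of exon ordered the genes in much the same way in both groups. In KO the order was Ski at 22.9 ± 2.58, Skil at 13.1 ± 2.22, Tgfbr2 at 10.2 ± 1.81, Tgif1 at 7.83 ± 0.79, Smad7 at 6.42 ± 3.22, Smad3 at 6.27 ± 1.199, Tgfb1 at 5.21 ± 0.52, Tgfbr1 at 4.59 ± 0.49, Tgfb3 at 1.49 ± 0.64 and Tgfb2 at 1.39 ± 0.58 CPM per kb (SD, n = 5). In WT Ski stood at 21.1 ± 6.70, Skil at 16.0 ± 6.25 and Tgif1 at 15.05 ± 3.34 CPM per kb (SD, n = 3), ahead of Tgfbr2 at 12.3 ± 4.32. Tgif1 was thus below Tgfbr2 in the KO means and above it in the WT means. Library by library, Tgif1 was below Tgfbr2 in every KO library and in WT replicate 2, and above it in WT replicates 1 and 3. The SD intervals of this pair overlapped in both groups, but such intervals do not give the spread of a difference within libraries. Among neighbours in the KO order, the SD intervals were apart between Ski and Skil and between Tgfbr1 and Tgfb3, and overlapped in all other pairs. In WT, where Smad3 at 8.30 ± 1.43, Smad7 at 8.01 ± 1.44, Tgfb1 at 6.55 ± 0.91, Tgfbr1 at 4.52 ± 0.88, Tgfb2 at 1.76 ± 0.61 and Tgfb3 at 0.89 ± 0.38 followed Tgfbr2, they were apart between Tgfb1 and Tgfbr1 and between Tgfbr1 and Tgfb2. Skil was below Ski per kb in every library, at 0.46 to 0.66 times its level in KO and 0.65 to 0.85 times in WT. The exon length is that of all annotated exons of a gene, so these levels depend on which isoforms are made.

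For 8 of the genes the tested gene with the most similar pattern over the 8 libraries was taken from 10131 candidates with a mean of at least 5 CPM, by Pearson's r of log2 CPM, as a description. These were Arpc1b for Tgif1 (r = 0.96), Hyal2 for Tgfb1 (0.99), Gsr for Tgfbr1 (0.99), Itga3 for Tgfbr2 (0.98), Hspa4 for Smad3 (0.98), Leng1 for Smad7 (0.96), Fam57a for Ski (0.99) and Aqp9 for Skil (0.98). The libraries differ in depth and quality, whose part in these r was not tested. The gene ranked 100 among the candidates still had r from 0.75 to 0.94, so the top gene was not alone in following its member.

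Of 73 further genes of the pathway in 6 lists, 0 passed in edgeR. At an unadjusted edgeR p under 0.05 there were 3, Lrrc32, Itgb8 and Ldlrad4, all higher in KO, where 4.44% of all genes were higher at that p. Limma voom called 0 of the 73, and DESeq2 1, Lrrc32, of the 68 it gave an adjusted p. Of the named pathway genes, Ccn2, Fbn1, Ltbp3, Thbs1, Eng, Acvrl1 and Sin3a share exon bases with genes of the opposite strand and Tgfbr3 with one of its own strand, most of all Ccn2 (665 of 2861 bases) and Fbn1 (2442 of 12128 bases). Lrrc32, Itgb8 and Ldlrad4 are also the 3 of the 73 whose groups did not overlap, against 5.15% of all genes.

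Among genes that hold latent TGF-beta or release it, 13 of 15 values were positive, with a median log2 fold change of 0.44, beside 61.9% positive and a median of 0.16 over all genes tested. That count rests on KO replicate 2: without it 8 of 15 were positive with a median of 0.01. Over all genes tested 52.0% were then positive, with a median of 0.02. With the KO libraries ending in bl 7 of 15 were positive, beside 48.5% of all genes tested. Fbn1, which encodes the matrix protein fibrillin 1 and is named after its values were seen, had 27.6 CPM in KO replicate 2, against 0.563 to 5.39 CPM in the other 7 libraries. KO replicate 2 also had the highest sums of fibroblast, endothelial, muscle, adipocyte, melanocyte, and platelet and red cell markers. It carried the most counts per kb on olfactory and vomeronasal receptor genes as well. The part of these in the count of positive values was not tested. Lrrc32 encodes GARP, which tethers latent TGF-beta to the cell surface. It had 8.11, 7.29, 11.8, 14.6 and 19.1 CPM in the KO libraries, against 2.29, 1.26 and 3.60 CPM in the WT libraries, so that every KO library was above every WT library. Its log2 fold change was 2.36 (95% interval 1.32 to 3.39, SE 0.46, edgeR adjusted p = 0.330). With the KO libraries ending in bl it was 2.61 (edgeR adjusted p = 0.062), and among libraries ending in br 1.65 (edgeR adjusted p = 0.993). Lrrc32 passed in DESeq2 (adjusted p = 0.00158) and with library weights (2.99, limma voom adjusted p = 0.0044).

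Itgb8 encodes the beta subunit of an integrin that activates latent TGF-beta. It had 21.3, 38.6, 25.6, 37.3 and 58.7 CPM in the KO libraries, against 12.3, 12.5 and 18.5 CPM in the WT libraries, again without overlap. Its log2 fold change was 1.33 (SE 0.35, edgeR adjusted p = 0.529), and it passed with library weights (1.498, limma voom adjusted p = 0.0131). Ltbp3, a latent TGF-beta binding protein gene, was at 0.51 (edgeR adjusted p = 0.832). Thbs1 encodes thrombospondin 1, which can activate latent TGF-beta. It was at -1.06 (edgeR adjusted p = 0.848), with 537 to 824 CPM in KO and 2691, 1668 and 189.9 CPM in WT replicates 1 to 3, so that WT replicate 3 lay below every KO library and the other WT libraries above.

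Lrrc32 is also known from regulatory T cells, endothelium and platelets. Markers of regulatory T cells are in none of the lists used here. The 6 general T cell markers summed to 24.8 to 79.8 CPM in KO and 28.8 to 51.1 CPM in WT. The 6 endothelial markers summed to 92.4 CPM in KO replicate 2, and otherwise to 4.13 to 6.85 CPM in KO and 3.13 to 19.5 CPM in WT, where Lrrc32 itself was lowest among KO libraries in KO replicate 2. Markers of platelets and red cells summed to 4.11 to 23.4 CPM in KO and 6.10 to 8.13 CPM in WT, with Pf4 and Ppbp at 0 in some libraries. The 7 fibroblast markers summed to 10.2 to 84.8 CPM in KO and 38.8 to 43.1 CPM in WT. The 6 Langerhans cell markers summed to 313.7 to 1006 CPM in KO and 727 to 1049 CPM in WT, so that only the library labelled KO replicate 1 lay within the WT range. KO replicate 5, the library highest in Lrrc32 and Itgb8, stood apart in the 7 inner root sheath and hair shaft markers, which summed to 691 CPM in it, beside 22.9 to 72.1 CPM in KO replicates 1 to 4, against 29.2 to 38.0 CPM in WT. Without KO replicate 5 Lrrc32 was at 2.13 and Itgb8 at 1.09 (edgeR adjusted p = 0.591 and 0.809). The 5 hair follicle stem cell markers summed to 401 to 679 CPM in KO and 314 to 1184 CPM in WT, and the 5 sebaceous gland markers to 471 to 714 CPM in KO and 556 to 755 CPM in WT. The part of these cells in the levels of the 10 genes and of Lrrc32 was not tested, and fewer cells of a type and less RNA per cell cannot be told apart in bulk samples.

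Co-receptors and decoys had 3 of 6 values positive and a median of 0.01, or 2 of 6 and -0.40 without KO replicate 2. Tgfbr3, which encodes the co-receptor betaglycan, was at -0.35 (edgeR adjusted p = 0.882), and Cd109, a membrane protein known to restrain TGF-beta signalling in keratinocytes, at 0.11 (edgeR adjusted p = 0.963). Eng and Acvrl1, receptors mainly of endothelium, were at 1.08 and 0.48, and at -0.86 and -0.52 without KO replicate 2. KO replicate 2 held them at 14.1 and 16.7 CPM, against 0.456 to 2.97 and 2.38 to 5.08 CPM in the other 7 libraries. That library had the highest endothelial marker sum and the most counts on olfactory and vomeronasal receptor genes, whose part here was not tested.

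Other Smads and Smad partners had 5 of 12 values positive and a median of -0.07. Tab1, which encodes a partner of the kinase TAK1, was at 0.71 (edgeR adjusted p = 0.793) and passed with library weights (0.89, limma voom adjusted p = 0.0388), but was at 0.14 in edgeR among libraries ending in br. The inhibitory Smad6 was at 1.17, the Smad anchor gene Zfyve16 at -0.32 and Smad9, a Smad of bone morphogenetic protein signalling, at 0.82, with edgeR adjusted p of 0.884, 0.919 and 0.935. Smad6 and Smad9 averaged under 2 CPM in both groups. Smad9 had 6.08 CPM in KO replicate 2 and at most 1.52 CPM in the other 7 libraries, and was at -0.49 without KO replicate 2.

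Negative regulators and partners of the repressors had 8 of 17 values positive and a median of -0.07. Ldlrad4 encodes a membrane protein that keeps Smad2 and Smad3 from the receptor. It had 9.21, 11.98, 8.07, 14.1 and 9.12 CPM in the KO libraries, against 3.86, 5.62 and 7.11 CPM in the WT libraries, at 0.92 on the log2 scale (SE 0.31, edgeR adjusted p = 0.645), and passed with library weights (1.05, limma voom adjusted p = 0.0444). Sin3a and Ctbp1, which encode co-repressors, were at -0.25 and 0.40, and Nedd4l, a ubiquitin ligase gene, at -0.62, with edgeR adjusted p of 0.909, 0.921 and 0.926. In Nedd4l the library labelled KO replicate 1 had 156.6 CPM and WT replicate 3 195.3 CPM, against 38.6 to 57.9 CPM in the other 6 libraries, and without WT replicate 3 the value was 0.22.

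Genes that TGF-beta is known to induce had 9 of 18 values positive and a median of 0.00, or 5 of the 16 tested and a median of -0.31 without KO replicate 2. The cell cycle inhibitor gene Cdkn1a was at -0.66, the transcription factor gene Klf10 at -0.59 and Cdkn2b, another cell cycle inhibitor gene, at 0.52, with edgeR adjusted p of 0.832, 0.829 and 0.919. With library weights Cdkn1a (-0.86, limma voom adjusted p = 0.0181), Klf10 (-0.85, adjusted p = 0.0241) and Ccn2 (-1.51, adjusted p = 0.0348) passed as lower in KO. Cdkn2b passed as higher (0.92, adjusted p = 0.0348), and Ccn2 was named after its values were seen. That fit called 6.46% of all genes (3.39% higher and 3.07% lower) and gave the library labelled KO replicate 1 a weight of 0.284. Cdkn1a had 393.1 CPM in the library labelled KO replicate 1, beside 132.9 to 216.0 CPM in KO replicates 2 to 5, against 305.1 to 416.4 CPM in WT. Klf10 was alike, with 119.2 CPM in the library labelled KO replicate 1, beside 55.5 to 68.6 CPM in KO replicates 2 to 5, against 86.8 to 127.9 CPM in WT. In both genes, as in Smad7, the library labelled KO replicate 1 lay within or above the WT range and the other 4 KO libraries below it. In that library Tgfa RNA was at 131.7 CPM, above the WT range of 85.1 to 111.7 CPM. Its Malat1 share was 4.88%, and that of WT replicate 3 was 6.61%. The part of either in this pattern was not tested.

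Genes that TGF-beta is known to repress had 1 of 5 values positive and a median of -0.26. Myc, a growth regulator, was at -0.48, Id1 and Id2, which encode inhibitors of differentiation factors, at -0.45 and 0.35, and the cell cycle phosphatase gene Cdc25a at -0.19, with edgeR adjusted p from 0.898 to 0.938. Id3, named after its values were seen, passed as lower with library weights (-1.21, limma voom adjusted p = 0.026), where the library labelled KO replicate 1 weighs 0.284. In edgeR among libraries ending in br Id3 was at 0.58. It had 43.5 CPM in the library labelled KO replicate 1, beside 6.32 to 10.3 CPM in KO replicates 2 to 5, against 15.7 to 22.7 CPM in WT.

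**Figure D4:**
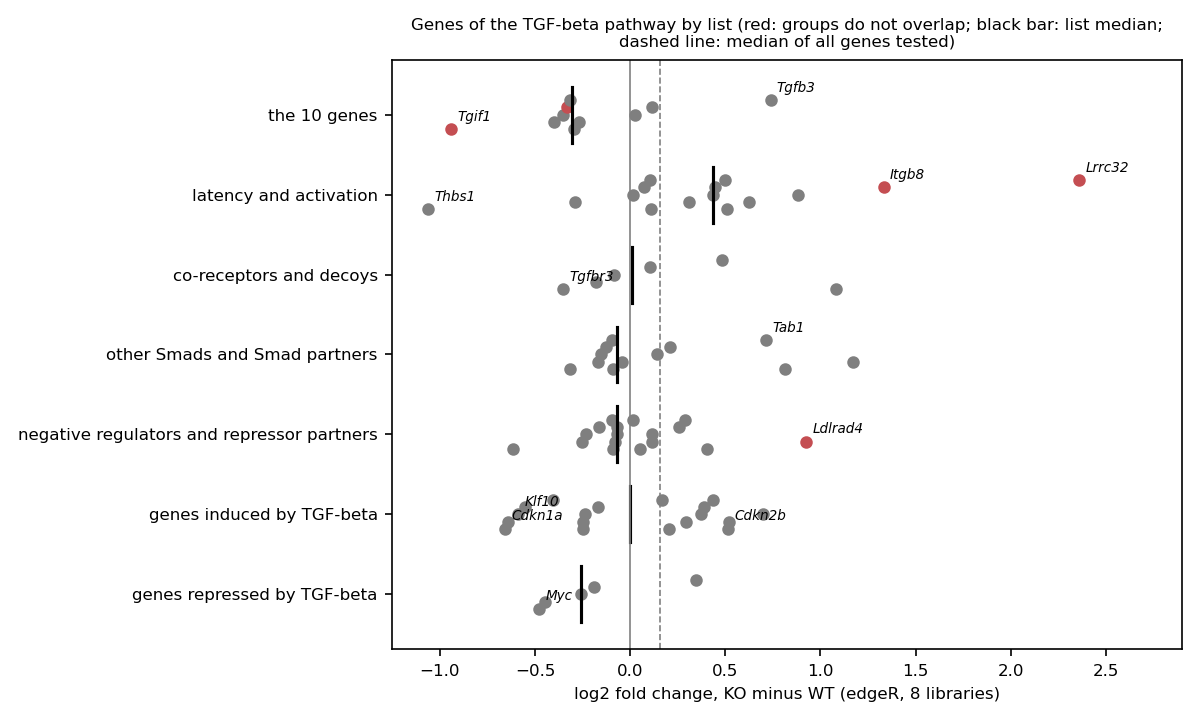
Log2 fold change, KO minus WT, in edgeR of the 10 genes and of 73 other genes of the TGF-beta pathway, 1 point a gene, by list. Black bars are list medians, the dashed line is the median of all genes tested (0.16), and red points are genes whose KO and WT libraries do not overlap; Lrrc32 is the farthest of these at 2.36 and Tgif1 the lowest at -0.94.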

How the data were processed

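Tools named in the submitters' processing notes are STAR 2.5.2b, Trimmomatic 0.36 and featureCounts from Subread 1.5.2, and builds named there are GRCm38 and GRCh38. Per the file headers, the deposited values are whole-number read counts per mouse Ensembl gene, not normalized, 1 file a library. All 49056 genes matched by identifier to GENCODE M21 (GRCm38) were on the same chromosome, and 91.4% had the same ends. The sources used here state neither strandedness nor multi-mapping settings. Names came from a table of gene symbols.

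Groups follow the labelled genotype. Replicates were numbered in order of deposition, and nothing says that each came from its own animal, so the spread behind the p-values may be technical. No 2 libraries of a group agreed within sampling noise (chi-square per gene at least 14.98). The test was that of edgeR 4.0.16 under R 4.3.3 (TMM, filterByExpr, robust quasi-likelihood, Benjamini-Hochberg over 19239 genes, threshold 0.05), checked on simulated counts. Fold changes are KO minus WT on the log2 scale. Alternatives were DESeq2 1.42.0, limma 3.58.1 (voom, with and without library weights), other scalings and filters, label ending as covariate, and parts of the libraries. A pair of alternatives was added after seeing the data: counts lowered by the receptor gene rate, and leaving out KO replicate 2 with WT replicate 3. Total counts, 5313552 to 18292303 a library, set the counting precision.

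The members and lists were chosen with earlier results of these data known. Named are all 10 genes, up to 4 genes of each other list (those past the threshold, then the smallest p), and the most similar gene of each member (predicted genes left out). Some genes this rule would name are not reported here.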

Additional observations from a re-analysis of the deposited data

Results flagged for a closer look

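In the 5 KO libraries 2 of the 10 genes had 1 library far from the other 4 (Dixon's test at 95%, critical value 0.710, which chance passes in about 1 in 20 groups). The library labelled KO replicate 1 held Smad7 at 53.73 CPM, while KO replicates 2 to 5 held 16.9 to 27.4 CPM. Ski was at 102.3 CPM in KO replicate 2, against 130.3 to 139.1 CPM in the other KO libraries.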

How the results depend on the processing

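Under 22 alternatives each, the 10 genes gave 220 values, of which 196 kept their sign and their side of the threshold, 5 kept their sign and passed it, and 19 changed sign. Tgif1 ranged from -1.26 to -0.71 and kept its sign throughout, with adjusted p from 0.0018 to 0.9999; Tgfb1, Tgfb2, Tgfb3, Tgfbr2, Smad3 and Skil also kept their signs. Tgfbr1 changed sign in DESeq2 (-0.013), with library weights (-0.028), RLE size factors (-0.009), upper quartile scaling (-0.004), no filter (-0.001), in libraries ending in br (-0.178), with the ending as covariate (-0.097), without KO replicates 1 and 2 and WT replicate 3 (-0.087), and without KO replicate 2 and WT replicate 3 (-0.147); over single left-out libraries it ran from -0.139 to 0.104. Ski changed sign in libraries ending in br (-0.069), with the ending as covariate (-0.003), without those 3 libraries (-0.077) and without those 2 (-0.073), and ran from -0.130 to 0.330 over left-out libraries. Smad7 changed sign with the ending as covariate (0.171) and in libraries ending in br (0.138). The causes were not tested.

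Of the 10 genes, DESeq2 called 1, library weights 1, leaving out those 3 libraries 3 and an unadjusted p under 0.05 1. Of the 73 others (68 in DESeq2 and 71 without those 3 libraries) these called 1, 9, 11 and 3. Of all genes tested they called 0.810%, 6.46%, 10.6% and 6.28%, in the same order. Over all genes edgeR called 1, against 137 in DESeq2, 0 in limma voom, 1243 with library weights, 0 with RLE or upper quartile scaling, 9 with no filter, 0 in libraries ending in br, 21 with the KO libraries ending in bl, 1883 without those 3 libraries, 0 without those 2, 1209 at an unadjusted p under 0.05, and 0 to 1 with 1 library left out. KO libraries ending in bl against br gave 0 genes, and 0 to 12160 with 1 library left out (12160 without the library labelled KO replicate 1, 4620 without KO replicate 2, 2 without KO replicate 5); where that leaves 1 library with an ending, it is assumed to vary like the others.

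The 20 mean CPM levels moved by less than 1 SD with library totals alone. The median log2 fold change of all genes was 0.16 with TMM and 0.12 to 0.20 with the other scalings. No paired analysis was possible because the labels give no pairing of KO with WT libraries. Depth limits Tgfb2 and Tgfb3, with 31 to 214 counts a library.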
